A study of Mus musculus with 20 samples.

Results

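The genotype difference in starved tumor cells was examined over all genes in 6 of the 20 RNA sequencing samples of the series, the 3 Ctsd-/- and the 3 Ctsd+/+ samples that had been kept for 10 days in medium with 1% fetal calf serum (FCS). They were chosen by the titles of the samples. The series also holds 6 samples of the same cells after 12 weeks in 1% FCS (1% FCS LT, long-term), which were used here to ask which differences were particular to 10 days, and 8 tumor samples, which were not analysed here. All cells came from mammary tumors of mice that carried the polyoma middle T oncogene (MMTV-PyMT), grown as cell lines that had immortalized spontaneously in culture. Ctsd+/+ cells have the normal gene for cathepsin D, and Ctsd-/- cells came from an MMTV-cre;Ctsd-/- PyMT mouse (C57BL/6N background), in which the cre recombinase under the mammary MMTV promoter removes the floxed Ctsd alleles in mammary epithelial cells. The labels and methods describe 1 line per genotype, so that the difference between the genotypes and the difference between 2 lines from different tumors cannot be told apart. The replicates are described as independent experiments with these lines, so p-values measure the spread between cultures and not between mice.

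Cathepsin D is the main aspartic protease of the lysosome, the acidic compartment in which proteins delivered by endocytosis and autophagy are broken down to amino acids. The kinase complex mTORC1 sits on the lysosomal membrane, senses these amino acids and controls growth, and its inhibition lets transcription factors of the TFEB family raise lysosomal and autophagy genes. Mammary carcinoma cells can keep an epithelial state, with keratins, tight junctions and desmosomes, or take on mesenchymal genes in an epithelial-mesenchymal transition (EMT), in which factors such as ZEB1, TWIST and PRRX1 take part. The comparison asks which of these programs differed between cells with and without cathepsin D after a short period of low serum.

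Between 33622831 and 39645445 reads per sample were counted on genes. Levels are counts relative to the scaled total of the library (CPM), always for replicates 1, 2 and 3 in this order, and where 2 sets of values are set against each other, Ctsd+/+ cells come first. A gene is named "called" where its adjusted p was under 0.05 and its log2 fold change (FC) of Ctsd-/- against Ctsd+/+ cells was above 1 or below −1. Of 15178 genes that passed a filter on low counts, 1569 were called as higher and 2221 as lower in Ctsd-/- cells. Called genes were 25.0% of those tested (10.3% higher and 14.6% lower), and the 3 samples of each genotype did not overlap for 55.2% of all genes. Most genes named below were picked among called genes whose samples did not overlap. For these, a lack of overlap follows from the choice. The median log2 FC over all genes tested was 0.000246, with quartiles of −0.59 and 0.44. The labels give replicate 1 of both genotypes another library number than replicates 2 and 3, and without replicate 1 of both genotypes 1472 genes were higher and 2163 lower. FCs and adjusted p-values come from the edgeR quasi-likelihood test, fitted on all 12 cell samples. The spread behind them thus includes that among the cultures of 12 weeks. Standard errors (SE) were computed as the absolute log2 FC divided by the square root of the F statistic of this test. Folds against a group with 0 counts in all its samples are lower bounds, computed from the level that 3 counts would have in its smallest library, and where a group held a few counts, the ratio of the pooled levels is given with its exact interval, which covers counting error only.

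The targeted gene Ctsd, on chromosome 7 from 142375911 to 142388038, had 4199, 2858 and 1266 CPM in Ctsd+/+ and 192, 141 and 131 CPM in Ctsd-/- cells (log2 FC −4.16, SE 0.371, adjusted p = 4.34e-06). Every Ctsd-/- sample lay below every Ctsd+/+ sample. The counts cover the whole gene, segments outside the floxed part included.

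The labelled cell type was checked against marker lists. Of 12 mammary epithelial markers 11 were tested, of which 10 were higher and 1 (Krt14) was lower in Ctsd-/- cells. Their summed level was 1139 to 2576 CPM in Ctsd+/+ cells and 12656 to 16707 CPM in Ctsd-/- cells, so both lines expressed epithelial genes, at different levels. Macrophage markers summed to 7.08 to 14.3 and 11.6 to 27.6 CPM, T, B and NK cell markers to 0.540 to 3.15 and 0.562 to 1.10 CPM, and endothelial markers to 3.33 to 9.15 and 5.59 to 9.73 CPM in Ctsd+/+ and Ctsd-/- cells, respectively. Of 14 macrophage markers 4 were tested, of which Cd68 and Ptprc were higher. Ptprc had 0, 0.0305 and 0 CPM in Ctsd+/+ and 0.1703, 0.0548 and 0.177 CPM in Ctsd-/- cells (14.04-fold higher, 95% counting interval 2.16 to 591, adjusted p = 0.00931), while Tyrobp, C1qa, C1qc and Fcgr1 had 0 counts in all 6 samples. Of 5 endothelial markers tested, Cdh5 was higher (0, 0.0305 and 0.0523 against 0.560, 0.602 and 0.532 CPM), and the marker of T, B and NK cells that was tested was not called. Adipocyte markers summed to 2.72 to 31.3 CPM in Ctsd+/+ cells and 3.84 to 8.22 CPM in Ctsd-/- cells, and of the 3 tested Fabp4 and Pparg were higher (0.0300, 0 and 0.0523 against 0.730, 0.219 and 0.266 CPM and 1.80, 1.28 and 1.67 against 5.06, 4.63 and 3.28 CPM) and Lpl, chosen after its values were seen, was lower (29.4, 2.60 and 0.968 against 2.21, 0.274 and 0.0591 CPM, with overlapping samples). The call of Fabp4 was lost without Ctsd+/+ replicate 1, 2 or 3 or Ctsd-/- replicate 1 (log2 FC 2.95 to 4.47), and that of Lpl without Ctsd+/+ replicate 1 (log2 FC −1.03) or Ctsd-/- replicate 2 or 3. The 12 fibroblast markers summed to 1189.7 to 3326 CPM in Ctsd+/+ cells and 5.04 to 11.9 CPM in Ctsd-/- cells, and all 6 that were tested (Col1a1, Col1a2, Col3a1, Pdgfra, Pdgfrb and Twist2) were lower in Ctsd-/- cells. The other 6 did not pass the filter. Among them, the fibroblast proteoglycan genes Dcn and Lum had 1.86, 0.366 and 0 CPM and 0 CPM in Ctsd+/+ cells, and Thy1, Fap, Dpt and Pi16 had at most 0.0305 CPM in any of them. The part of cells of these kinds in the results was not tested. In RNA from a whole culture, fewer cells of a kind and less RNA per cell cannot be told apart.

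Genes of the epithelial barrier were higher in Ctsd-/- cells. Of the tight junction and apical polarity list, 40 of 42 genes passed the filter. Of these, 34 were higher and the other 6 were not called, at a median log2 FC of 2.47 (quartiles 1.60 and 3.15). Of 10 keratins tested, 7 were higher and 1 was lower (median log2 FC 2.63), and of 18 components of desmosomes and hemidesmosomes 10 were higher and 1 was lower (median 1.59). Against the 10.3% of all genes that were higher, the shares were 85.0%, 70.0% and 55.6%.

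Epcam, which encodes an adhesion protein of epithelia, had 128, 171 and 145 CPM in Ctsd+/+ and 763, 858 and 819 CPM in Ctsd-/- cells (log2 FC 2.46, SE 0.139, adjusted p = 1.77e-07). Cdh1, the gene of E-cadherin, had 234, 308 and 259 against 978, 974 and 911 CPM (log2 FC 1.84, SE 0.137, adjusted p = 1.26e-06). In both cases the groups were well apart, and the transcript was present in both lines. Krt8 and Krt18 encode the paired keratins of simple epithelia. Krt8 had 217, 493 and 766 against 2447, 3467 and 3821 CPM (log2 FC 2.72, SE 0.357, adjusted p = 7.62e-05). Krt18 had 261, 411 and 464 against 2799, 3852 and 4066 CPM (log2 FC 3.24, SE 0.223, adjusted p = 6.78e-07). Krt7, a further luminal keratin, had 84.7, 256 and 381 against 2275, 3682 and 3747 CPM (log2 FC 3.75, SE 0.450, adjusted p = 3.98e-05). Krt19 had a log2 FC of 3.37. For Krt8, Krt18 and Krt7 replicate 1 was the lowest sample of each genotype, and the genotypes did not overlap.

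Krt20, a keratin of intestinal and urothelial cells, had 0.0900, 0.0305 and 0.236 CPM in Ctsd+/+ and 19.004, 20.5 and 20.5 CPM in Ctsd-/- cells (log2 FC 7.30, SE 0.404, adjusted p = 1.61e-07), and was thus near the counting limit in Ctsd+/+ cells alone. Krt14, which marks basal mammary cells, went the other way, with 37.3, 45.3 and 32.4 CPM in Ctsd+/+ and 4.99, 7.39 and 7.98 CPM in Ctsd-/- cells (log2 FC −2.50, SE 0.433, adjusted p = 0.000579). It was the exception among the called keratins. Krt5, its usual partner in basal cells, was low in both lines (0.0300, 0.122 and 0.0262 against 0.560, 0.246 and 0.236 CPM; log2 FC 2.53, SE 0.909, adjusted p = 0.0369), and was no longer called when Ctsd+/+ replicate 1 or 3 or Ctsd-/- replicate 1 was left out (adjusted p = 0.103, 0.111 and 0.131).

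Claudins form the seal of the tight junction. Cldn1 had 1.38, 0.763 and 4.61 CPM in Ctsd+/+ and 82.5, 125 and 115 CPM in Ctsd-/- cells (log2 FC 5.55, SE 0.617, adjusted p = 2.22e-05), the highest log2 FC of the list. Cldn4 had 59.0, 213 and 368 against 2269.5, 2288 and 2057 CPM (log2 FC 3.37, SE 0.526, adjusted p = 0.000275). Cldn7 had 25.3, 21.7 and 27.6 against 264, 292 and 294 CPM (log2 FC 3.51, SE 0.168, adjusted p = 7.24e-08). Replicate 1 of Ctsd+/+ cells was the lowest of all 6 samples for Cldn4. Tjp3, a scaffold protein of the junction, was near the lower limit in Ctsd+/+ cells (0.120, 0.0611 and 0.0523 CPM) and at 2.92, 2.16 and 2.04 CPM in Ctsd-/- cells (log2 FC 4.89, SE 0.537, adjusted p = 2.04e-05). Prom1, the gene of an apical membrane protein of cell protrusions, had 0.480, 0.214 and 0.157 against 15.6, 5.09 and 3.87 CPM (log2 FC 4.85, SE 0.604, adjusted p = 5.13e-05), with replicate 1 well above the other Ctsd-/- samples. Rab17, which directs transport in polarized epithelia, had 0.780, 0.336 and 0.445 against 12.1, 9.28 and 11.2 CPM (log2 FC 4.38, SE 0.368, adjusted p = 2.92e-06).

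Desmosomal cadherins followed the same direction. Dsg2 had 18.9, 15.3 and 12.7 CPM in Ctsd+/+ and 132, 112 and 111 CPM in Ctsd-/- cells (log2 FC 2.92, SE 0.178, adjusted p = 2.84e-07). Dsc2 had 6.36, 3.69 and 3.85 against 45.5, 39.0 and 41.1 CPM (log2 FC 3.18, SE 0.297, adjusted p = 6.08e-06). Lamb3, a laminin chain gene of the epithelial basement membrane, was also higher (40.0, 63.5 and 99.1 against 162, 312 and 293 CPM; log2 FC 1.92, SE 0.363, adjusted p = 0.00104), whereas Lama3, the gene of a partner chain, was lower (19.3, 36.6 and 81.4 against 7.35, 9.04 and 15.8 CPM; log2 FC −2.10, SE 0.625, adjusted p = 0.0155). The call of Lama3 was lost without Ctsd+/+ replicate 3 (log2 FC −1.41, adjusted p = 0.073), without Ctsd-/- replicate 1 (adjusted p = 0.0577) and without Ctsd-/- replicate 2 (adjusted p = 0.0559).

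**Figure D1:**
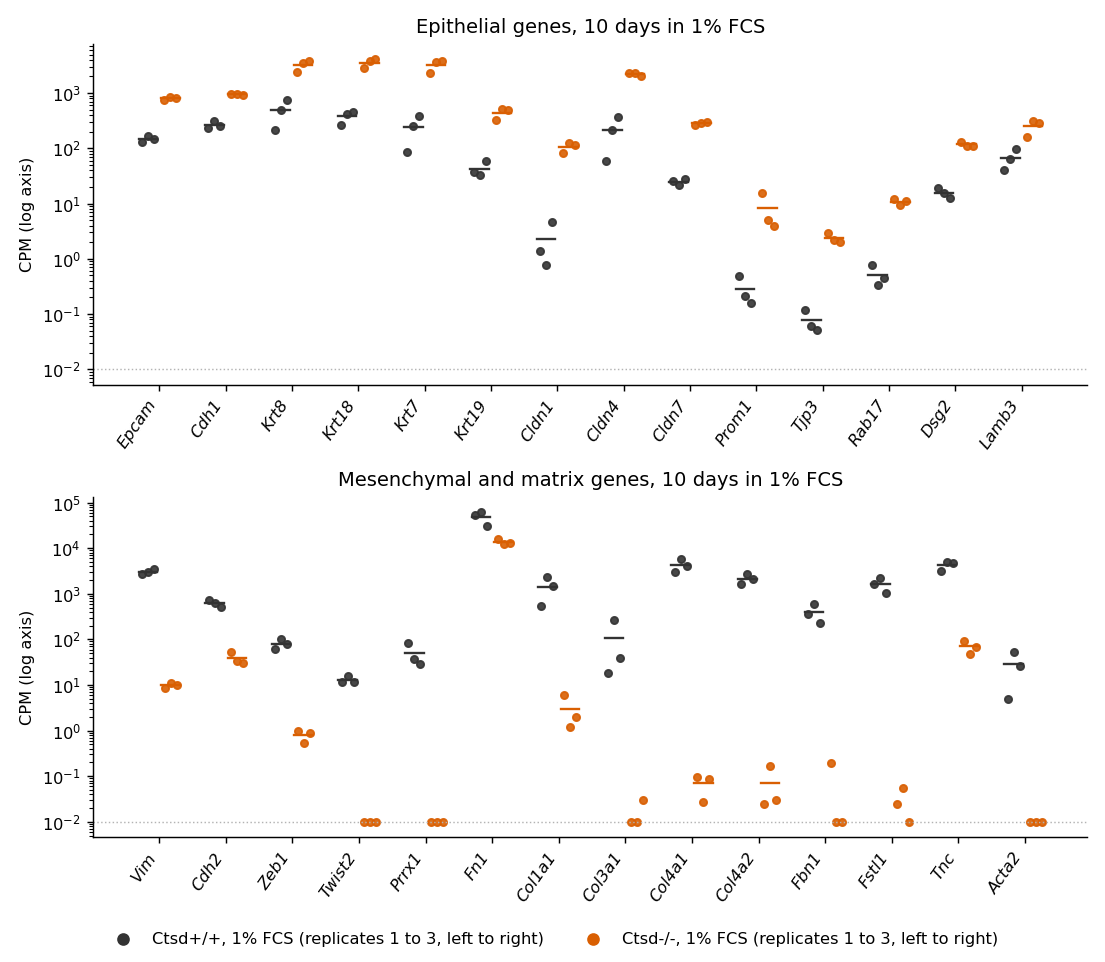
CPM on a log axis of 14 epithelial genes (upper panel) and 14 mesenchymal and matrix genes (lower panel) in the 3 Ctsd+/+ (black) and the 3 Ctsd-/- samples (orange) at 10 days in 1% FCS. Horizontal bars are means, and points on the dotted line (0.01 CPM) are samples with 0 counts. Every orange point lies above every black point of the same gene in the upper panel and below it in the lower panel.

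Many epithelial genes carry an E-box of the form CACCTG, or its reverse complement CAGGTG, close to their start, the sequence to which repressors of the SNAIL and ZEB families are known to bind. The 250 bases before the start of each gene were searched on both strands in the RefSeq promoters of GRCm38.p6. Of 40 tested genes of the tight junction and polarity list 25 had a promoter in this table, and 14 of them (56.0%) held at least 1 match. Of 7 keratin promoters 5 did (71.4%), against 17.1% of all 27025 promoters and 15.5% of the 10790 promoters of genes tested here. Of 14 promoters of the interstitial matrix list 2 held the E-box (14.3%), and of 9 of the mesenchymal list 1 (11.1%). A match is a description of these letters and not a measured binding site. The 3 promoters below were chosen because they hold several matches. They are shown from 5′ to 3′ on the strand of the gene, ending at the base before its start, with each E-box in capitals. Epcam lies on the forward strand (chr17:87635729-87635978) with matches that begin 187 and 19 bases before the start, Crb3 on the forward strand (chr17:57061951-57062200) with matches at 118, 63 and 7 bases, and Lsr on the reverse strand (chr7:30973470-30973719) with matches at 249, 219, 151 and 69 bases.
Epcam: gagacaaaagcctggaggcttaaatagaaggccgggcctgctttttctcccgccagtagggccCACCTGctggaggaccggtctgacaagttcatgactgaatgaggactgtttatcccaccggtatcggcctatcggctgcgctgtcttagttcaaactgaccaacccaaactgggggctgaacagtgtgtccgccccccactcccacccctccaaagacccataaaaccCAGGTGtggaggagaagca
Crb3: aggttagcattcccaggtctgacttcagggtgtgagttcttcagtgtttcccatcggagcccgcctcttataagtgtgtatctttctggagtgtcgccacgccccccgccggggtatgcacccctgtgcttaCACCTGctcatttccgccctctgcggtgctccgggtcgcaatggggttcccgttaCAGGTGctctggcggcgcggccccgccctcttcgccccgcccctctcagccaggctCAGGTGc
Lsr: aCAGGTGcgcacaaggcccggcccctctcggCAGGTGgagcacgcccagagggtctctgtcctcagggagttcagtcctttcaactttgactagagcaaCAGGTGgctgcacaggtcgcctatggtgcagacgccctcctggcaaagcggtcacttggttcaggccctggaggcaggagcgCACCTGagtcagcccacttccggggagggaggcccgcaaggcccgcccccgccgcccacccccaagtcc
Crb3, which encodes a small protein of the apical polarity complex, had 2.19, 1.22 and 2.98 CPM in Ctsd+/+ and 36.3, 38.7 and 36.5 CPM in Ctsd-/- cells (log2 FC 4.11, SE 0.318, adjusted p = 1.57e-06). Lsr, the gene of the angulin that seals tricellular junctions, had 79.9, 54.0 and 51.2 against 183, 196 and 195 CPM (log2 FC 1.63, SE 0.174, adjusted p = 1.65e-05). Both were chosen after their values were seen.

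Mesenchymal genes were lower in Ctsd-/- cells. Of 17 tested genes for mesenchymal cadherins, intermediate filaments and EMT factors, 14 were lower and the other 3 were not called, against 14.6% lower among all genes, and the median log2 FC was −3.89. Vim, the gene of the intermediate filament vimentin, had 2749.9, 2968 and 3481 CPM in Ctsd+/+ and 8.61, 11.1 and 9.76 CPM in Ctsd-/- cells (log2 FC −8.29, SE 1.07, adjusted p = 6.74e-05). The samples of each line were close to each other and the lines far apart. Cdh2, which encodes N-cadherin, had 728, 639 and 502 against 51.7, 33.1 and 30.6 CPM (log2 FC −4.02, SE 0.675, adjusted p = 0.000465). Zeb1, a repressor of epithelial genes, had 62.6, 101 and 77.5 against 0.998, 0.548 and 0.887 CPM (log2 FC −6.62, SE 0.641, adjusted p = 7.79e-06).

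Prrx1 and Twist2, homeobox and basic helix-loop-helix factors of mesenchymal cells, had 83.1, 37.5 and 28.2 and 11.9, 15.8 and 11.6 CPM in Ctsd+/+ cells and 0 counts in every Ctsd-/- sample. They were at least 559-fold and at least 148-fold lower (adjusted p = 1.85e-06 and 9.71e-07). Fn1, the gene of fibronectin, had 54583, 62112 and 31049 CPM in Ctsd+/+ and 16123, 12212 and 13012 CPM in Ctsd-/- cells (log2 FC −1.84, SE 0.282, adjusted p = 0.000244). Here replicate 3 of Ctsd+/+ cells was the lowest of its group and still above every Ctsd-/- sample.

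Genes of the interstitial matrix had the lowest median of the 42 pathway and gene family lists. Of 23 tested, 22 were lower and 1 (Col5a2) was not called, at a median log2 FC of −5.91 (quartiles −10.80 and −4.15). The median was −7.81 without Ctsd-/- replicate 1. The fibroblast markers described above moved in the same direction. Collagen genes such as Col1a1 and Col3a1 stand in both lists, so these are not separate observations. The part of fibroblast markers in the result was not tested. Col1a1, the gene of the alpha 1 chain of type I collagen, had 531, 2320.1 and 1460.1 CPM in Ctsd+/+ and 5.96, 1.20 and 1.95 CPM in Ctsd-/- cells (log2 FC −8.87, SE 0.896, adjusted p = 1.09e-05). Col3a1 had 18.4, 265 and 38.3 CPM in Ctsd+/+ and 0, 0 and 0.0296 CPM in Ctsd-/- cells (11488-fold lower, 95% counting interval 2061 to 453774, adjusted p = 2.7e-05). In Ctsd+/+ cells replicate 2 was the highest for both, and the 3 samples spread more widely than for Vim. Fbn1, which encodes the microfibril protein fibrillin-1, had 358, 595 and 227 against 0.195, 0 and 0 CPM (log2 FC −12.36, SE 0.809, adjusted p = 4.68e-07). Col5a3, a chain of type V collagen, had 25.3, 559.9 and 285 against 0.0973, 0.0822 and 0.0296 CPM (log2 FC −11.92, SE 1.2997, adjusted p = 1.93e-05). Mgp, an inhibitor of calcification in matrix, had 70.6, 17.3 and 1.23 CPM in Ctsd+/+ cells and 0 counts in Ctsd-/- cells (at least 335-fold lower, adjusted p = 0.00681). The Ctsd+/+ samples of Mgp spread widely, and limma-voom gave an adjusted p of 0.0857.

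Basement membrane genes split by chain. Of 22 tested, 13 were lower and 2 higher (9.09% higher and 59.1% lower, against 10.3% and 14.6% of all genes; median log2 FC −2.20). Lamb3 was among the higher ones. Col4a1 and Col4a2, which encode the chains of the common type IV collagen and lie head to head on chromosome 8 (from 11198423 to 11312826 and from 11312805 to 11449287), had 2929.8, 5678 and 4083 and 1603, 2773 and 2087 CPM in Ctsd+/+ cells. In Ctsd-/- cells they had 0.0973, 0.0274 and 0.0887 and 0.0243, 0.164 and 0.0296 CPM (log2 FC −15.78, SE 0.414, adjusted p = 6.67e-10 for Col4a1, and log2 FC −14.81, SE 0.474, adjusted p = 2.62e-09 for Col4a2). Both lay close to the counting limit in Ctsd-/- cells. The linker proteins nidogen-1 and -2 followed, Nid1 with 506, 717 and 539 against 0.341, 0.274 and 0.0887 CPM (log2 FC −11.23, SE 0.689, adjusted p = 2.94e-07) and Nid2 with 31.7, 27.4 and 18.6 CPM and 0 counts (at least 292-fold lower, adjusted p = 2.75e-06).

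Matricellular proteins, secreted proteins that modulate contact with the matrix, were put in 1 list with target genes of the regulator YAP. Of 18 genes tested in this list, 10 were lower in Ctsd-/- cells and the other 8 not called (55.6% lower, against 14.6% of all genes; median log2 FC −1.48). Tnc, which encodes tenascin-C, had 3237, 5032 and 4692 CPM in Ctsd+/+ and 93.9, 48.6 and 67.9 CPM in Ctsd-/- cells (log2 FC −5.94, SE 0.646, adjusted p = 1.87e-05). Ccn4, a member of the CCN family, had 485, 868 and 464 against 32.0, 14.5 and 9.67 CPM (log2 FC −5.01, SE 0.620, adjusted p = 4.9e-05). Ccn5 varied widely among Ctsd+/+ samples, with 302, 117 and 8.14 CPM, and had 0.754, 0.192 and 0.0591 CPM in Ctsd-/- cells (log2 FC −8.65, SE 1.49, adjusted p = 0.000544, and adjusted p = 0.0507 by limma-voom). Of 17 smooth muscle and contractile genes 8 were lower and 1 was higher (5.88% higher and 47.1% lower; median log2 FC −0.95). The median was −0.53 with genes of at most 3 counts in every sample of 1 genotype set to their bound. Acta2, the gene of smooth muscle actin, had 5.01, 53.9 and 25.6 CPM in Ctsd+/+ cells and 0 counts in Ctsd-/- cells (at least 318-fold lower, adjusted p = 6.24e-05). Tagln, the gene of the actin-binding protein transgelin, had 1.95, 10.8 and 5.26 against 0.122, 0.110 and 0 CPM (log2 FC −6.18, SE 0.757, adjusted p = 4.62e-05), with replicate 2 the highest of the Ctsd+/+ samples for both.

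Proteases of the matrix did not move in a single direction. Of 32 tested metalloproteases, ADAMTS proteases, plasminogen activators and inhibitors, 8 were higher and 15 lower (25.0% higher and 46.9% lower, against 10.3% and 14.6% of all genes). The secreted metalloproteases Mmp3, Mmp9, Mmp10 and Mmp13 were higher in Ctsd-/- cells, with log2 FCs of 4.40, 4.05, 5.09 and 4.28. Mmp10, the one with the largest difference, had 0.0600, 0.733 and 0.5496 CPM in Ctsd+/+ and 11.6, 17.8 and 16.8 CPM in Ctsd-/- cells (log2 FC 5.09, SE 0.643, adjusted p = 5.77e-05). The membrane-bound Mmp14 and Mmp16 were lower, Mmp14 with 341, 602 and 419 against 0.268, 0.438 and 0.384 CPM (log2 FC −10.29, SE 0.307, adjusted p = 1.62e-09) and Mmp16 with 51.9, 52.4 and 35.9 against 0.0243, 0 and 0.0296 CPM (2574-fold lower, 95% counting interval 712 to 21263, adjusted p = 6.66e-08). Timp3, an inhibitor of metalloproteases, had 3631, 2616 and 871 CPM in Ctsd+/+ and 7.67, 1.04 and 0.976 CPM in Ctsd-/- cells (log2 FC −9.50, SE 1.38, adjusted p = 0.000166). Adamts2, which trims procollagens, had 267, 161 and 38.9 CPM and 0 counts (at least 1754-fold lower, adjusted p = 1.67e-05). Plau, which encodes the urokinase plasminogen activator and was chosen after its values were seen, was higher (104, 168 and 208 against 1108, 1446 and 1235 CPM; log2 FC 2.98, SE 0.334, adjusted p = 2.34e-05).

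Integrins, the receptors of matrix and basement membrane, were higher for 5 and lower for 8 of 18 subunits (27.8% higher and 44.4% lower, against 10.3% and 14.6% of all genes). The laminin and collagen receptor subunits Itga6 and Itga2 were higher, Itga6 with 184, 117 and 116 CPM in Ctsd+/+ and 350.2, 472 and 513 CPM in Ctsd-/- cells (log2 FC 1.68, SE 0.208, adjusted p = 4.97e-05) and Itga2 with a log2 FC of 1.72. Itga8, the fibronectin receptor chain that pairs with beta 1, had 3.15, 2.66 and 2.59 against 38.5, 34.5 and 35.0 CPM (log2 FC 3.68, SE 0.295, adjusted p = 2.05e-06). Itga1, Itga7 and Itga11, which are known from muscle and stromal cells, were lower, with log2 FCs of −5.84, −4.60 and −4.39. For Itga7, 97.7, 145 and 105 CPM in Ctsd+/+ cells stood against 4.45, 5.50 and 4.35 CPM in Ctsd-/- cells (log2 FC −4.60, SE 0.266, adjusted p = 2.06e-07).

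**Figure D2:**
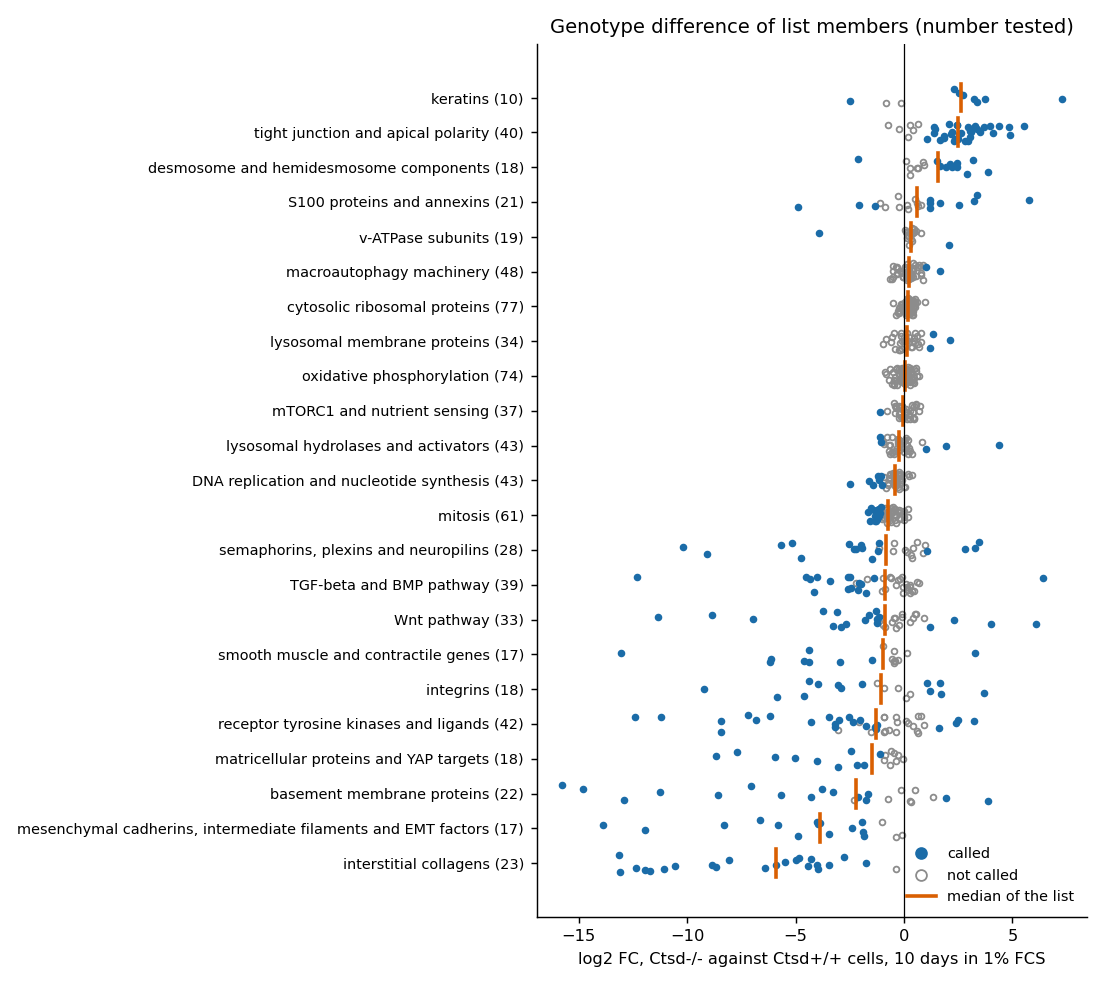
Log2 FC of Ctsd-/- against Ctsd+/+ cells at 10 days for the tested members of 23 gene lists, 1 point per gene, with called genes filled and the median of each list as an orange bar. Keratins and tight junction genes have medians of 2.63 and 2.47, the interstitial matrix one of −5.91, and ribosomal, respiratory chain and autophagy genes lie close to 0.

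Among all genes with an average log2 CPM above 1.3 and groups that did not overlap, the 12 lowest log2 FCs belonged to Col4a1, Fstl1, Adamts2, Ppic, Col4a2, Gria3, Tbx20, Prrx1, Pdk4, Emb, Rftn1 and Fbxw17. Fstl1, a secreted protein of stroma, had 1608, 2229.5 and 1059 CPM in Ctsd+/+ and 0.0243, 0.0548 and 0 CPM in Ctsd-/- cells (59509-fold lower, 95% counting interval 20363 to 288569, adjusted p = 2.07e-07). Ppic, the gene of a cyclophilin of the secretory pathway, had 96.9, 138 and 118 CPM in Ctsd+/+ cells and 0 counts in Ctsd-/- cells (at least 1328-fold lower, adjusted p = 1.35e-07). Tbx20, a T-box factor of heart development, had 71.1, 35.4 and 45.5 CPM and 0 counts (at least 572-fold lower, adjusted p = 2.62e-07). Pdk4, which restrains the entry of pyruvate into the citric acid cycle, had 28.6, 50.5 and 41.5 CPM and 0 counts (at least 453-fold lower, adjusted p = 1.49e-06). Gria3, Emb, Rftn1 and Fbxw17 behaved alike. For the glutamate receptor gene Gria3, the basigin relative Emb, the raft protein gene Rftn1 and the F-box gene Fbxw17, which has close paralogs, every Ctsd-/- sample was at 0 counts and Ctsd+/+ samples lay between 17.9 and 73.5 CPM. In all 12 the Ctsd-/- samples were at or near 0 counts.

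The 12 highest log2 FCs belonged to Cdkn2b, Hoxb5, nonagouti, Shank1, Nfasc, Slc6a14, Hoxb2, Pglyrp1, Hoxb6, an unnamed gene (ENSMUSG00000089672), Gcnt3 and Dhh. Cdkn2b, which encodes the CDK4 inhibitor p15, had 0 counts in every Ctsd+/+ sample and 58.7, 58.6 and 53.5 CPM in Ctsd-/- cells (at least 622-fold higher, adjusted p = 4.96e-08). Slc6a14, an amino acid transporter for neutral and cationic amino acids, had 0 counts and 6.35, 7.31 and 4.67 CPM (at least 66.7-fold higher, adjusted p = 1.59e-06). Nfasc, the gene of the adhesion protein neurofascin, had 0, 0 and 0.0262 against 33.6, 30.6 and 28.9 CPM (3253-fold higher, 95% counting interval 584 to 128541, adjusted p = 1.92e-07). Pglyrp1, a secreted protein that binds bacterial peptidoglycan, had 0.0600, 0.0305 and 0 against 17.9, 28.3 and 22.5 CPM (790.0-fold higher, 95% counting interval 270.0 to 3833, adjusted p = 2.32e-06). Gcnt3, an enzyme of mucin glycosylation, had 0, 0.0305 and 0.0262 against 3.97, 10.1 and 7.80 CPM (372-fold higher, 95% counting interval 103 to 3077, adjusted p = 2.64e-06). Dhh, which encodes the ligand desert hedgehog, had 0.210, 0.0611 and 0.183 against 27.0, 42.1 and 45.3 CPM (log2 FC 7.93, SE 0.391, adjusted p = 8.61e-08). Nonagouti and Shank1, the genes of a ligand of melanocortin receptors and of a synaptic scaffold, had 0 counts in Ctsd+/+ cells and 5.59 to 15.7 CPM in Ctsd-/- cells. In all 12 the Ctsd+/+ samples were at or near 0 counts.

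Of 61 genes of mitosis tested, 16 were lower in Ctsd-/- cells and the other 45 were not called. Of all 61, 59 had a negative log2 FC, and the median was −0.76 (quartiles −1.05 and −0.45). The share that was called, 26.2%, stands against 14.6% of all genes that were lower. In DNA replication and nucleotide synthesis 8 of 43 genes were lower and the other 35 not called (18.6% lower; median log2 FC −0.41). Without replicate 1 of both genotypes 8 genes of mitosis were called, all lower. In that setting 2163 of 15445 genes tested were lower, so the share in the mitosis list was then close to that of all genes.

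Mki67, the gene of the proliferation antigen Ki-67, had 737, 476 and 626 CPM in Ctsd+/+ and 282, 308 and 268 CPM in Ctsd-/- cells (log2 FC −1.10, SE 0.318, adjusted p = 0.0134). All 3 Ctsd-/- samples lay below the lowest Ctsd+/+ sample. Without Ctsd+/+ replicate 1 the log2 FC of Mki67 was −0.94, under the threshold on FC, and without replicate 1 of both genotypes it was −0.93 (adjusted p = 0.0916). Cdc20, an activator of the anaphase-promoting complex, had 154, 106 and 158 against 35.7, 50.7 and 45.1 CPM (log2 FC −1.67, SE 0.352, adjusted p = 0.00219). Smc2, a condensin subunit, had 191, 124 and 196 against 55.3, 76.9 and 67.1 CPM (log2 FC −1.36, SE 0.268, adjusted p = 0.00137). Mybl2 and Melk, a transcription factor and a kinase of dividing cells, had log2 FCs of −1.53 and −1.58. Ccne2, the gene of cyclin E2, differed most among the replication genes, with 17.2, 9.25 and 22.8 against 2.24, 2.33 and 4.17 CPM (log2 FC −2.50, SE 0.448, adjusted p = 0.000735). Cdc6, which licenses origins of replication, had 63.5, 32.1 and 79.8 against 16.01, 18.8 and 23.3 CPM (log2 FC −1.59, SE 0.315, adjusted p = 0.0014). Replicate 2 was the lowest of the Ctsd+/+ samples for Mki67, Cdc20, Smc2, Ccne2 and Cdc6. Pcna, the sliding clamp of DNA polymerase, had 172, 132 and 181 CPM in Ctsd+/+ and 119, 157 and 138 CPM in Ctsd-/- cells, and these overlapped (log2 FC −0.23, SE 0.1699, adjusted p = 0.289).

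Regulators of cell cycle entry differed in opposite directions. Ccnd1 and Ccnd2 encode cyclins D1 and D2, which activate CDK4 and CDK6. Ccnd1 had 408, 322 and 562 against 1398, 1606 and 2102 CPM (log2 FC 1.98, SE 0.207, adjusted p = 1.4e-05). Ccnd2 had 528, 376 and 367 against 14.9, 5.04 and 4.20 CPM (log2 FC −5.71, SE 0.517, adjusted p = 4.94e-06). Cdkn2a, which encodes p16 and p19ARF, had 4.38, 1.34 and 1.20 against 28.9, 26.6 and 30.2 CPM (log2 FC 3.63, SE 0.390, adjusted p = 1.7e-05), and its neighbor Cdkn2b had the highest log2 FC of the genes above. Rb1, the gene of the retinoblastoma protein that CDK4 phosphorylates, was lower (45.6, 28.9 and 26.2 against 12.8, 10.8 and 10.6 CPM; log2 FC −1.56, SE 0.216, adjusted p = 0.000114). Cdkn1a, which encodes the p53 target p21, had 321, 241 and 408 against 226, 239 and 319 CPM, with overlapping samples (log2 FC −0.31, SE 0.213, adjusted p = 0.257). Of the 29 genes of this list 3 were higher and 6 lower (10.3% higher and 20.7% lower, against 10.3% and 14.6% of all genes). Eda2r, a p53-regulated receptor of the tumor necrosis factor family, had 112, 63.0 and 92.9 CPM in Ctsd+/+ and 0.754, 0.602 and 0.414 CPM in Ctsd-/- cells (log2 FC −7.22, SE 0.841, adjusted p = 3.22e-05).

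Transcripts of the lysosome differed for a minority of genes. Of 43 hydrolases and activators 3 were higher and 2 lower, with a median log2 FC of −0.23, of 34 membrane and sorting proteins 3 were higher and the others not called (median 0.14), and of 19 subunits of the proton pump 1 was higher and 1 lower (median 0.32). The shares called, 11.6%, 8.82% and 10.5%, stand against 25.0% of all genes. The log2 FC was positive for 16 of the 43, 21 of the 34 and 18 of the 19. By the adjusted p alone, under which 48.5% of all genes fell, 16, 13 and 8 of them were under 0.05. Between 0 and 4 hydrolases were lower when 1 sample was left out, 0 of them without Ctsd+/+ replicate 1.

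The other cathepsins and legumain are proteases of the same compartment as cathepsin D, and most of them are cysteine proteases. Of 10 tested, 2 were higher and 2 lower (20% higher and 20% lower, against 10.3% and 14.6% of all genes). Ctsl, the gene of cathepsin L, had 328, 509 and 559 CPM in Ctsd+/+ and 1604, 1586 and 1649.8 CPM in Ctsd-/- cells (log2 FC 1.79, SE 0.236, adjusted p = 7.7e-05). Ctsw, known from cytotoxic lymphocytes, had 5.85, 22.6 and 13.1 against 36.4, 50.7 and 36.6 CPM (log2 FC 1.57). Ctsc and Ctsz, the genes of cathepsins C and Z, were lower, Ctsc with 39.9, 72.1 and 34.4 against 21.4, 15.1 and 14.5 CPM (log2 FC −1.52, SE 0.264, adjusted p = 0.000588) and Ctsz with 187, 202 and 152 against 58.4, 49.0 and 41.7 CPM (log2 FC −1.86, SE 0.194, adjusted p = 1.42e-05). Ctsb, the gene of cathepsin B, had 671, 556 and 407 against 398, 293 and 246 CPM, a difference that passed the adjusted p but not the threshold on FC (log2 FC −0.80, SE 0.232, adjusted p = 0.0135). Without Ctsd-/- replicate 1 it passed both (log2 FC −1.01). No Ctsd-/- sample of Ctsb reached the lowest Ctsd+/+ sample.

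The hydrolases that were higher were Acp5, Neu1 and Gm2a. Acp5, the gene of the tartrate-resistant acid phosphatase, had 1.02, 0.947 and 0.445 CPM in Ctsd+/+ and 21.2, 16.7 and 12.8 CPM in Ctsd-/- cells (log2 FC 4.40, SE 0.464, adjusted p = 1.5e-05). Neu1, a sialidase that depends on the protective protein cathepsin A, had 41.0, 26.5 and 27.0 against 149, 113 and 96.7 CPM (log2 FC 1.92, SE 0.302, adjusted p = 0.000284). Gm2a, the activator of ganglioside breakdown, had 64.0, 42.4 and 36.1 against 95.02, 99.7 and 97.6 CPM (log2 FC 1.04, SE 0.188, adjusted p = 0.000787). Lipa, the acid lipase that releases cholesterol and fatty acids from lipoproteins, was lower (79.3, 68.6 and 50.5 against 35.4, 25.9 and 30.3 CPM; log2 FC −1.11, SE 0.166, adjusted p = 0.0002), as was Creg1, a secreted glycoprotein gene (log2 FC −1.05). Gm2a, Lipa and Creg1 lay close to the threshold on FC. Gm2a was at 0.96 without Ctsd+/+ replicate 2 and at 0.85 without Ctsd+/+ replicate 3, Lipa was at −0.96 without Ctsd+/+ replicate 1, and Creg1 was between −0.87 and −0.97 without Ctsd+/+ replicate 1, Ctsd-/- replicate 2 or Ctsd-/- replicate 3. Glb1, the gene of the lysosomal beta-galactosidase that senescence stains detect, had 62.7, 75.2 and 58.2 CPM in Ctsd+/+ and 81.9, 69.0 and 61.8 CPM in Ctsd-/- cells, and the 2 groups overlapped (log2 FC 0.12, SE 0.132, adjusted p = 0.488). Lamp1, which encodes the main membrane glycoprotein of lysosomes, had 983, 818 and 635 against 1380.4, 1062 and 948 CPM, with the lowest Ctsd-/- sample within the Ctsd+/+ range (log2 FC 0.48, SE 0.197, adjusted p = 0.0638). Of the membrane proteins, Cln3, which is lost in juvenile ceroid lipofuscinosis, was higher (log2 FC 1.34), and so was Cd68 (3.90, 2.23 and 2.36 against 20.5, 9.01 and 7.36 CPM; log2 FC 2.12, SE 0.560, adjusted p = 0.0083), which is also a macrophage marker. Ptprc, the leukocyte common antigen, was the other macrophage marker that was higher, and its values stand with the marker lists above. The part of such cells in these values was not tested.

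In macroautophagy, 2 of 48 genes were higher and the others not called (4.17% called, against 25.0% of all genes), while 33 had a positive log2 FC and the median was 0.21. By the adjusted p alone 23 of the 48 were under 0.05, against 48.5% of all genes. Gabarapl2, a ubiquitin-like protein of the autophagosome, had 32.4, 32.1 and 32.0 CPM in Ctsd+/+ and 64.0, 70.3 and 63.5 CPM in Ctsd-/- cells (log2 FC 1.04, SE 0.131, adjusted p = 5.67e-05, and log2 FC 0.99 without Ctsd-/- replicate 2). Tecpr1, which acts in autophagosome fusion, had 52.8, 48.2 and 40.9 against 178, 143 and 131 CPM (log2 FC 1.67, SE 0.330, adjusted p = 0.00139). Sqstm1, the gene of the cargo receptor p62, had 626, 671 and 523 against 864, 792 and 755 CPM. Its groups did not overlap, but the difference passed neither threshold (log2 FC 0.40, SE 0.169, adjusted p = 0.0665). The transcription factors Tfeb, Tfe3 and Mitf overlapped between the lines, with log2 FCs of −0.09 (adjusted p = 0.755), −0.03 (adjusted p = 0.835) and 0.08 (adjusted p = 0.796).

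Genes of mTORC1 and nutrient sensing were called in 1 of 37 cases (2.70%, against 25.0% of all genes). This was Sesn1, a p53-regulated inhibitor of the pathway, with 15.7, 12.5 and 11.6 CPM in Ctsd+/+ and 7.76, 5.72 and 5.11 CPM in Ctsd-/- cells (log2 FC −1.09, SE 0.222, adjusted p = 0.00166). Its log2 FC was −0.96 without Ctsd+/+ replicate 1 and −0.97 without Ctsd-/- replicate 3, under the threshold. Mtor, the gene of the kinase, had 121, 128 and 122 against 71.6, 72.3 and 68.9 CPM, a small difference with a narrow spread that did not reach the threshold on FC (log2 FC −0.80, SE 0.0773, adjusted p = 7.68e-06). Rptor, its substrate adaptor, had 154, 154 and 145 against 111, 108 and 106 CPM (log2 FC −0.48, SE 0.0743, adjusted p = 0.000261), and Mlst8, the third core subunit, overlapped between the lines (log2 FC −0.04, SE 0.120, adjusted p = 0.783). For Mtor and Rptor the samples of each line lay close together and the lines did not overlap.

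**Figure D3:**
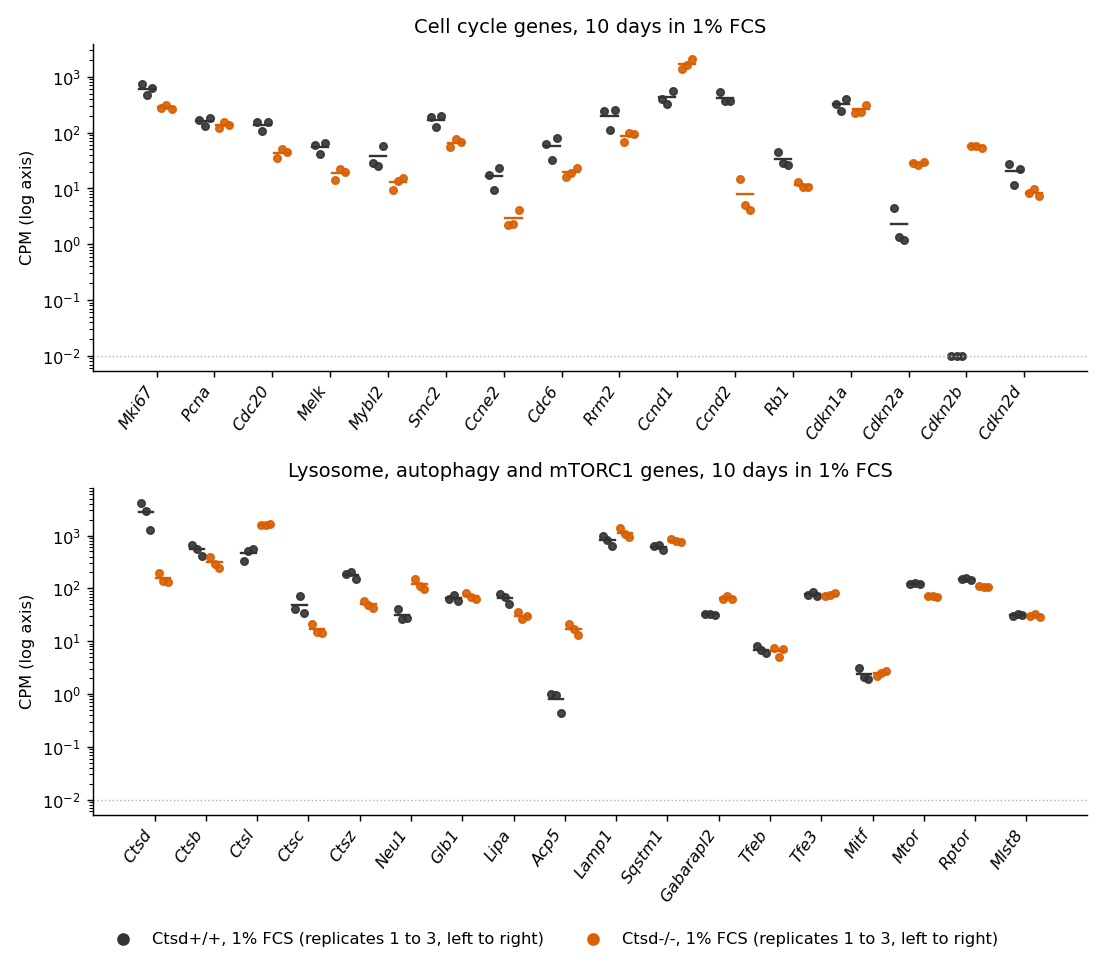
CPM on a log axis of 16 cell cycle genes (upper panel) and 18 lysosome, autophagy and mTORC1 genes (lower panel) in the 3 Ctsd+/+ (black) and 3 Ctsd-/- samples (orange) at 10 days, with means as bars and 0 counts on the dotted line (0.01 CPM). Mki67, Cdc20, Smc2 and Ccnd2 are lower and Ccnd1, Cdkn2a and Cdkn2b higher in Ctsd-/- cells, while the points of Pcna, Lamp1, Glb1, Tfeb, Tfe3, Mitf and Mlst8 overlap.

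Receptor tyrosine kinases, their ligands and binding proteins were lower for 19 and higher for 4 of 42 genes (9.52% higher and 45.2% lower, against 10.3% and 14.6% of all genes; median log2 FC −1.27). Erbb3, the gene of a partner receptor of HER2 in luminal cells, had 40.8, 29.6 and 43.4 CPM in Ctsd+/+ and 236, 180.2 and 224 CPM in Ctsd-/- cells (log2 FC 2.49, SE 0.195, adjusted p = 1.73e-06). The EGF receptor ligands Tgfa and Areg were higher, Tgfa with 22.5, 15.8 and 25.3 against 164, 208 and 235 CPM (log2 FC 3.25, SE 0.196, adjusted p = 2.76e-07) and Areg with a log2 FC of 1.61, whereas the ligand Ereg had 19.2, 20.8 and 13.6 CPM in Ctsd+/+ cells and 0 counts in Ctsd-/- cells (at least 202-fold lower, adjusted p = 3.96e-07). Pdgfrb, a receptor of stromal and mural cells, had 552, 694 and 159.7 against 0.389, 0.137 and 0.0296 CPM (log2 FC −11.20, SE 1.85, adjusted p = 0.000413). Igfbp3, a carrier of insulin-like growth factors, had 10.6, 8.79 and 12.1 against 0, 0 and 0.0887 CPM (394-fold lower, 95% counting interval 134 to 1911, adjusted p = 1.45e-06). Ligands of the EGF receptor differed in both directions.

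Of 39 TGF-beta and BMP genes 15 were lower and 1 was higher (2.56% higher and 38.5% lower, against 10.3% and 14.6% of all genes). The ligand gene Tgfb2 had 105, 55.5 and 34.6 CPM in Ctsd+/+ and 5.45, 2.82 and 2.66 CPM in Ctsd-/- cells (log2 FC −4.15, SE 0.459, adjusted p = 2.17e-05). Grem1, an antagonist of BMPs, had 6.81, 23.6 and 19.4 CPM and 0 counts (at least 187-fold lower, adjusted p = 0.000135). Smad6, a target and inhibitor of BMP signaling, had 39.5, 8.58 and 4.92 against 1.70, 0.466 and 0.443 CPM (log2 FC −4.32, SE 0.896, adjusted p = 0.00194), with replicate 1 several-fold above the other Ctsd+/+ samples. Bmp7, a ligand known to favor epithelial states, was the exception, with 0.0300, 0 and 0 against 1.14, 1.45 and 0.650 CPM (114-fold higher, 95% counting interval 20.1 to 4547, adjusted p = 0.00062).

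Wnt ligands differed in both directions. Wnt7a had 0.660, 0.489 and 11.2 against 256, 316 and 295 CPM (log2 FC 6.10, SE 0.910, adjusted p = 0.000198). Wnt7b had 55.1, 159.7 and 194 against 576, 691 and 746 CPM (log2 FC 2.30, SE 0.343, adjusted p = 0.000201). For both, replicate 3 was the highest Ctsd+/+ sample and below every Ctsd-/- sample. Wnt5a, a ligand of the non-canonical branch, was lower (224, 201 and 135 against 18.3, 12.3 and 10.9 CPM; log2 FC −3.75, SE 0.291, adjusted p = 1.6e-06), as was its receptor Ror2, with 1.68, 1.83 and 1.02 CPM in Ctsd+/+ cells and 0 counts in Ctsd-/- cells (at least 17.03-fold lower, adjusted p = 1.63e-05). Dkk2, a secreted Wnt inhibitor, had 90.7, 109 and 109.8 against 0.0487, 0.0274 and 0.0296 CPM (2879-fold lower, 95% counting interval 1124 to 10569.7, adjusted p = 3.39e-09). Rnf43, which removes Wnt receptors, had 1.41, 0.672 and 0.811 against 19.6, 12.8 and 14.6 CPM (log2 FC 4.02, SE 0.291, adjusted p = 9.93e-07). In all, 4 Wnt genes were higher and 14 lower of 33 tested (12.1% higher and 42.4% lower, against 10.3% and 14.6% of all genes).

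Of 13 Notch genes 4 were higher and 6 lower (30.8% higher and 46.2% lower, against 10.3% and 14.6% of all genes). The ligand gene Jag1 had 201, 359 and 244 CPM in Ctsd+/+ and 103, 93.9 and 60.2 CPM in Ctsd-/- cells (log2 FC −1.64, SE 0.245, adjusted p = 0.000197), while the ligand Dll1 had a log2 FC of 2.15. The feedback gene Nrarp was higher (3.24, 3.45 and 5.08 against 39.4, 29.5 and 43.6 CPM; log2 FC 3.25, SE 0.262, adjusted p = 2.12e-06), and the target genes Hey1 and Hey2 were lower, Hey2 with a log2 FC of −1.75 and Hey1 with 6.42, 1.44 and 1.91 CPM against 0.0243, 0 and 0.0296 CPM (178-fold lower, 95% counting interval 49.0 to 1479, adjusted p = 0.000549).

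Semaphorins and their receptors, guidance molecules that also act in tumors, were lower for 13 and higher for 4 of 28 genes (14.3% higher and 46.4% lower, against 10.3% and 14.6% of all genes). Sema3a and Sema3e encode secreted members. Sema3a had 236, 286 and 225 against 7.30, 6.93 and 6.89 CPM (log2 FC −5.14, SE 0.295, adjusted p = 1.94e-07). Sema3e had 153, 85.6 and 53.3 against 0.243, 0.137 and 0.148 CPM (log2 FC −9.06, SE 0.588, adjusted p = 4.35e-07), and the receptor gene Plxna2 had 180.0, 47.1 and 34.1 against 0.0730, 0.0274 and 0.118 CPM (log2 FC −10.18, SE 0.870, adjusted p = 3.29e-06). The membrane-bound Sema4a and Sema6a were higher, with log2 FCs of 3.25 and 2.82.

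Secreted inflammatory genes differed in both directions, 10 higher and 10 lower of 31 (32.3% in either direction, against 10.3% and 14.6% of all genes). C3, the central complement component, had 0.600, 0.397 and 0.105 CPM in Ctsd+/+ and 106, 26.8 and 31.3 CPM in Ctsd-/- cells (log2 FC 7.24, SE 0.927, adjusted p = 6.39e-05). Cxcl16, chosen after its values were seen, had 27.8, 26.0 and 37.6 against 312, 253 and 295 CPM (log2 FC 3.23, SE 0.349, adjusted p = 1.78e-05). The epithelial chemokines Ccl20 and Ccl28 were higher from a level near 0 (0.876, 0.356 and 0.680 and 0.462, 0.520 and 0.503 CPM in Ctsd-/- cells). Ptgs2, which encodes the inducible cyclooxygenase, had 219, 634 and 703 CPM in Ctsd+/+ and 0.195, 0.0274 and 0.148 CPM in Ctsd-/- cells (log2 FC −11.98, SE 0.733, adjusted p = 2.92e-07). Il6, a cytokine of the senescence-associated secretome, had 1.35, 3.39 and 0.314 CPM and 0 counts (at least 18.99-fold lower, adjusted p = 0.00115). Of 38 interferon response genes 4 were higher and 4 lower, 21.1% called in all and so near the 25.0% of all genes, and of 15 antigen presentation genes 1 was higher and 6 were lower (6.67% higher and 40.0% lower), with Psmb8, an immunoproteasome subunit, at 8.996, 8.85 and 6.80 against 1.85, 0.219 and 0.798 CPM (log2 FC −3.09, SE 0.701, adjusted p = 0.00344).

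Luminal and basal lineage genes were mixed. Of 20 hormone-sensing and alveolar genes 7 were higher and 4 lower (35.0% higher and 20% lower, against 10.3% and 14.6% of all genes), and Esr1, the gene of the estrogen receptor, overlapped between the lines (28.3, 12.4 and 11.02 against 15.2, 9.26 and 10.0 CPM; log2 FC −0.58, SE 0.331, adjusted p = 0.167). Btn1a1, a protein of milk fat globules, had 3.93, 6.47 and 10.7 CPM in Ctsd+/+ and 51.6, 66.2 and 73.4 CPM in Ctsd-/- cells (log2 FC 3.17, SE 0.421, adjusted p = 8.19e-05). Ly6a, a progenitor marker, had 55.3, 20.3 and 22.8 against 275, 382 and 362 CPM (log2 FC 3.37, SE 0.407, adjusted p = 4.09e-05). Aldh1a3, Wfdc18 and Trf were among the lower genes of this list. Of 18 basal and progenitor genes 9 were lower and 3 higher (16.7% higher and 50% lower). The higher ones were Lgr6, Cd44 and Krt5, which was low in both lines. Vcan and Sox11, a proteoglycan and a transcription factor, were lower, Vcan with 74.5, 93.8 and 141 against 2.17, 0.794 and 1.39 CPM (log2 FC −6.14, SE 0.451, adjusted p = 1.09e-06) and Sox11 with 14.3, 12.7 and 15.7 against 0.292, 0.0274 and 0.0296 CPM (log2 FC −6.82, SE 0.599, adjusted p = 4.01e-06). Of 21 S100 proteins and annexins 8 were higher and 3 lower (38.1% higher and 14.3% lower). Among them, S100a14, which is known from epithelia, was higher (0.7496, 0.5496 and 0.236 against 12.2, 37.2 and 33.9 CPM; log2 FC 5.77, SE 0.493, adjusted p = 3.29e-06), and S100a4, which is known from mesenchymal and migrating cells, was lower (5.13, 11.4 and 8.32 against 0.122, 0.438 and 0.296 CPM; log2 FC −4.87, SE 0.527, adjusted p = 1.84e-05).

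Of 77 cytosolic ribosomal proteins 0 were called by edgeR and the median log2 FC was 0.20, and of 74 nuclear-encoded genes of oxidative phosphorylation 0 were called (median 0.03). By the adjusted p alone, under which 48.5% of all genes fell, 13 and 26 of them were under 0.05. At an unadjusted p under 0.05 these numbers were 20 and 32, and DESeq2 and limma-voom also called 0 of either list. Of 15 genes of fatty acid synthesis 1 was higher and 1 lower (13.3% called, against 25.0% of all genes). In cholesterol synthesis and uptake 1 of 24 genes was higher and 1 lower (8.33% called). In glycolysis and the hypoxia response 2 of 32 genes were higher and 5 lower, and the 21.9% called are near the 25.0% of all genes. A pair of targets of hypoxia-inducible factors went in opposite directions, Car9 with 4.05, 5.25 and 2.51 against 11.5, 32.3 and 37.0 CPM (log2 FC 2.77, SE 0.585, adjusted p = 0.00216) and Vegfa with 128, 519.7 and 204 against 66.5, 82.6 and 58.0 CPM (log2 FC −2.04, SE 0.401, adjusted p = 0.00137).

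In the integrated stress and unfolded protein responses 2 genes were higher and 1 was lower of 32 (9.38% called, against 25.0% of all genes). Atf3 and Trib3, both induced by ATF4, were higher, Atf3 with 5.55, 11.6 and 14.2 against 27.0, 39.8 and 41.1 CPM (log2 FC 1.78, SE 0.425, adjusted p = 0.00467) and Trib3 with 22.4, 35.1 and 54.3 against 58.5, 124 and 82.4 CPM (log2 FC 1.25, SE 0.374, adjusted p = 0.0161). Trib3 was no longer called without Ctsd+/+ replicate 1 (log2 FC 0.99, adjusted p = 0.0551) or without Ctsd-/- replicate 2 (log2 FC 0.92, adjusted p = 0.0768). Atf4 itself overlapped between the lines (log2 FC 0.16, SE 0.196, adjusted p = 0.52). Of 25 targets of the oxidative stress factor NRF2 5 were lower and the other 20 not called (20% lower, against 14.6% of all genes). Nqo1, a quinone reductase, had 19.2, 20.2 and 23.6 CPM in Ctsd+/+ and 3.84, 7.80 and 7.15 CPM in Ctsd-/- cells (log2 FC −1.75, SE 0.418, adjusted p = 0.00472). Aldh3a1, an aldehyde dehydrogenase, had 30.4, 23.2 and 8.79 against 0.195, 0.0822 and 0.207 CPM (log2 FC −6.98, SE 1.34, adjusted p = 0.00116). The median log2 FC of this list was 0.08. Of 27 immediate early genes 3 were higher and 9 lower (11.1% higher and 33.3% lower, against 10.3% and 14.6% of all genes). Egr1 had 144, 153 and 97.8 against 16.6, 9.37 and 11.2 CPM (log2 FC −3.40, SE 0.257, adjusted p = 1.33e-06), and all 3 Ctsd-/- samples lay far below the Ctsd+/+ samples.

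Hox genes, which record the position of a tissue along the body axis and lie in clusters, separated the lines by cluster. The list held 39 Hox genes, and 17 passed the filter on low counts. Among these 17, Ctsd-/- cells had 8 at a higher and 7 at a lower level (47.1% and 41.2%, against 10.3% and 14.6% of all genes). In 9 of the 17, every sample of 1 genotype had at most 3 counts, against 700 of all 15178 genes. Such genes pass the filter by their level in other samples, which favors a call. The shares are thus partly set by the filter and cannot be weighed against those of all genes. Those that were higher were 7 genes of the Hoxb cluster on chromosome 11 and Hoxd8, and those that were lower were 7 genes of the Hoxa cluster on chromosome 6. Hoxa7 was not called, although no Ctsd-/- sample of it reached a Ctsd+/+ sample. Hoxb5 had 0 counts in every Ctsd+/+ sample and 33.9, 27.8 and 29.9 CPM in Ctsd-/- cells (at least 333-fold higher, adjusted p = 1.19e-08). Hoxb9 had 0, 0 and 0.0262 against 4.16, 3.81 and 3.46 CPM (399.7-fold higher, 95% counting interval 71.3 to 15822, adjusted p = 1.32e-06). Hoxa9 had 3.51, 3.63 and 3.51 CPM in Ctsd+/+ cells and 0 counts in Ctsd-/- cells (at least 40.0-fold lower, adjusted p = 0.000145). Hoxa10 had 8.16, 8.79 and 7.90 against 0.0243, 0.0274 and 0 CPM (460.5-fold lower, 95% counting interval 127 to 3808, adjusted p = 0.000108). Within each line the 3 samples were close to each other for these genes.

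**Figure D4:**
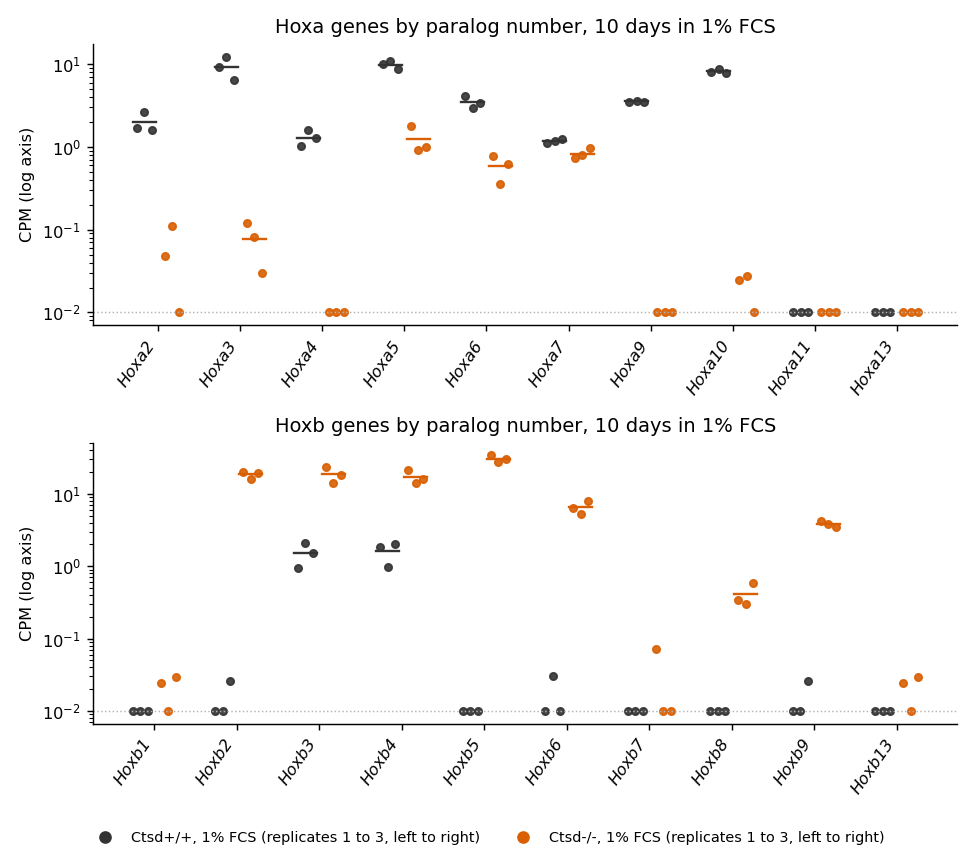
CPM on a log axis of the Hoxa genes (upper panel) and the Hoxb genes (lower panel), ordered by paralog number, in the 3 Ctsd+/+ (black) and 3 Ctsd-/- samples (orange) at 10 days, with means as bars and 0 counts on the dotted line (0.01 CPM). Of the tested Hoxa genes drawn, all but Hoxa7 are called lower in Ctsd-/- cells, and every tested Hoxb gene is called higher.

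Of retinoid genes, which make, bind or degrade retinoic acid, 2 were higher and 7 lower of 13 (15.4% higher and 53.8% lower, against 10.3% and 14.6% of all genes). Imprinted genes are those of which a single parental copy is active. Of 17 tested 4 were higher and 5 lower (23.5% higher and 29.4% lower). Kcnq1ot1, a long non-coding RNA of the Kcnq1 domain, had 4.83, 4.79 and 4.61 CPM in Ctsd+/+ cells and 0 counts in Ctsd-/- cells (at least 53.5-fold lower, adjusted p = 4.95e-06), and Phlda2 and Slc22a18 of the same domain were higher, with log2 FCs of 3.18 and 2.31. Peg10 and Sgce are neighbors in a domain on chromosome 6. Peg10 had 19.7, 26.7 and 35.7 against 0.316, 0.0822 and 0.0296 CPM (log2 FC −7.48, SE 1.17, adjusted p = 0.00028). Sgce had 37.9, 38.1 and 28.7 against 0.608, 0.0548 and 0.0591 CPM (log2 FC −7.08, SE 1.23, adjusted p = 0.00059).

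Which of these differences were particular to 10 days was tested by the interaction of genotype and culture time, the log2 FC at 12 weeks minus that at 10 days. At 12 weeks 19.4% of all genes were called. The interaction passed an adjusted p of 0.05 for 4593 of 15178 genes (30.3%). Of the 3790 genes called at 10 days, 1748 (46.1%) passed it toward a smaller or opposite difference and were not called in the same direction at 12 weeks, 1313 (34.6%) were called in the same direction at both times, and 729 (19.2%) were neither. The first group makes up 11.5% of all genes tested (5.13% higher and 6.39% lower) and the second 8.65%. The genes were called on the same 10-day samples that enter the interaction, which favors a smaller difference at the other time. With 1 of the 10-day samples left out, the interaction passed for 3674 to 4843 genes. By DESeq2 it passed for 5189 genes, and with a replicate block for 5300.

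Most of the called genes of the epithelial barrier and of the interstitial matrix were in the first group, with a smaller or opposite difference at 12 weeks. Of the 34 called genes of tight junctions and polarity 31 were in the first group and 3 (Cldn1, Prom1 and Cldn23, the last chosen after its values were seen) in the second, and the median log2 FC of the list was 0.02 at 12 weeks. Of the 22 called genes of the interstitial matrix 17 were in the first group and 3 in the second, and the median turned to 1.89. For the mesenchymal list these numbers were 9 and 5 of 14 (median −0.13 at 12 weeks), and for keratins 5 and 2 of 8 (median 0.43). Hox and Wnt genes had the reverse split. Of 15 called Hox genes 4 were in the first group and 11 in the second, and of 18 called Wnt genes 5 and 11. The first group is not free of a genotype difference at 12 weeks. At that time 9 of the 23 tested matrix genes and 5 of the 17 tested mesenchymal genes were called higher, opposite to 10 days. Of the 40 tested genes of tight junctions and polarity, 5 were called lower at 12 weeks. The 3 that were called higher then were those of the second group. Over all genes tested, 19.4% were called at 12 weeks in either direction.

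Vim had 3.03, 0.906 and 7.17 CPM in Ctsd+/+ and 809.8, 506 and 38.1 CPM in Ctsd-/- cells at 12 weeks, opposite to the direction at 10 days and with a wide spread among the Ctsd-/- samples (log2 FC 6.92, adjusted p = 0.000253, and difference 15.21, adjusted p = 2.51e-05 for the interaction). Krt7 had 2305, 1928 and 1753 CPM in Ctsd+/+ and 2221, 2575 and 3088 CPM in Ctsd-/- cells at 12 weeks, where the lowest Ctsd-/- sample lay within the Ctsd+/+ range (difference −3.35, adjusted p = 0.00129 for the interaction). Cldn4 had 892, 870.2 and 1414 against 1479, 1847 and 2845 CPM (difference −2.41, adjusted p = 0.0207 for the interaction). For Vim, Krt7 and Cldn4 no Ctsd+/+ sample at 12 weeks lay within the range of the Ctsd+/+ samples at 10 days. Col1a1 had 0.676, 0.533 and 3.04 against 3.95, 3.37 and 1.96 CPM at 12 weeks, low in both lines (difference 9.98, adjusted p = 6.24e-05). Zeb1 had 1.76, 1.81 and 1.85 against 23.1, 15.9 and 3.14 CPM (difference 9.58, adjusted p = 1.22e-05). Krt20, Cldn1, Prom1, Krt14 and Twist2 were called in the same direction at both times, as were Cdkn2b, Hoxb5, Mmp14 and Ptgs2.

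**Figure D5:**
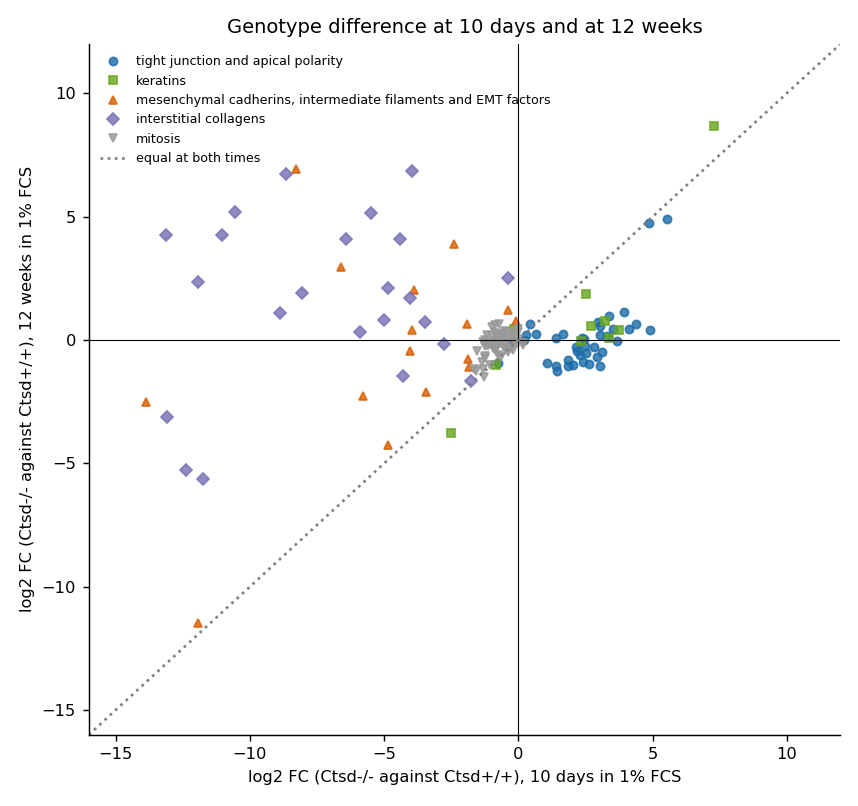
Log2 FC of Ctsd-/- against Ctsd+/+ cells at 10 days (horizontal axis) and at 12 weeks (vertical axis) for the tested members of 5 gene lists, 1 point per gene, with a dotted line where both are equal. Most tight junction genes lie near 0 on the vertical axis at a positive horizontal value, the interstitial matrix lies to the left with a median of 1.89 on the vertical axis, and a few keratin, claudin and EMT genes lie near the dotted line.

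Of the 16 called genes of mitosis 3 were in the first group and 4 in the second, and the median log2 FC of the list was −0.10 at 12 weeks. Mki67 had 598, 548 and 238 CPM in Ctsd+/+ and 588, 408 and 307 CPM in Ctsd-/- cells at 12 weeks, which overlapped (log2 FC −0.09, adjusted p = 0.85), and its interaction missed the threshold (difference 1.01, adjusted p = 0.109). Cdkn2a had 9.19, 10.8 and 10.0 against 18.5, 17.9 and 18.5 CPM at 12 weeks (difference −2.77, adjusted p = 0.00174 for the interaction), Ccnd1 1014, 841 and 914 against 1761, 1674 and 1652 CPM (difference −1.10, adjusted p = 0.012) and Ccnd2 39.6, 21.8 and 35.1 against 4.55, 10.2 and 7.64 CPM (difference 3.60, adjusted p = 0.00128). Acp5 and Lipa of the lysosome also had a smaller or opposite difference at 12 weeks (difference −2.67, adjusted p = 0.0051 for Acp5, and difference 1.73, adjusted p = 0.000227 for Lipa), as had Ctsl (difference −1.28, adjusted p = 0.0114). Mtor did not pass this test (difference −0.14, adjusted p = 0.379).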

How the data were processed

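RNA of tumor cells in culture was sequenced in 3 samples for each genotype and time. Per the labels and the methods of the study, Trimmomatic was used for trimming and STAR for mapping to mm10, and the authors deposited the table of raw counts that STAR writes for each sample, by Ensembl gene. Versions and the annotation release are not given in the sources used here. The column of counts on the opposite strand was used, since 97.1 to 97.3% of strand-assigned reads lay there. Summary lines for unmapped, multimapping, ambiguous and unassigned reads were left out of the totals. Gene names and coordinates came from a GENCODE annotation of mm10, and promoter sequences from RefSeq.

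Counts of all 12 cell samples were filtered with filterByExpr, scaled by TMM and fitted with edgeR 4.0.16 (R 4.3.3) by the quasi-likelihood test, with a common biological coefficient of variation of 0.217 and 8 residual degrees of freedom, and p-values were adjusted over all genes by the Benjamini-Hochberg method. For 1% FCS Ctsd-/- against Ctsd+/+ cells, a call needed an adjusted p under 0.05 and a log2 FC beyond 1 in either direction. The interaction with culture time was tested in the same fit. No samples of a group agreed within sampling noise (chi-square per gene of 15.8 to 188.3 between the 10-day samples of a genotype).

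Genes in 42 pathway and family lists and 6 marker lists were counted and described by their medians, without a test. The members and lists were chosen with earlier results of these data known. Named genes were Ctsd, a set of defining genes and the 12 highest and the 12 lowest log2 FCs. The latter came from called genes above an average log2 CPM of 1.3 whose groups did not overlap. Up to 4 called genes per list and direction were added, from those whose groups did not overlap. Col5a2, Hoxa7, Hoxd8 and some members of the marker lists, Pdgfra among them, lie outside this rule and carry no mark. Other genes outside it are marked as chosen after their values were seen.

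The alternatives were DESeq2 1.42.0, limma-voom (limma 3.58.1, the package named by the study), other size factors, other filters, counts regardless of strand, the 6 samples alone, a replicate block, other thresholds, leaving out each sample, and leaving out replicate 1 of both genotypes. Tumor samples were left out, since they are no part of the comparison, and a few genes are not reported here.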

Additional observations from a re-analysis of the deposited data

Results flagged for a closer look

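For 95 of the 188 genes followed here, the genotype difference at 12 weeks differed from that at 10 days (interaction of genotype and time, edgeR's quasi-likelihood test, adjusted p under 0.05). That test is why they are listed. Over all genes tested it passed for 4593 of 15178 (30.3%). Most of the 188 genes were picked for their differences at 10 days. The same 10-day samples enter the interaction, so the choice favors a smaller difference at 12 weeks. Each value below is the log2 FC of Ctsd-/- against Ctsd+/+ cells at 12 weeks minus the log2 FC at 10 days, so that a negative value marks a difference that was less positive or more negative at 12 weeks. Several of these genes had 0 counts in all samples of a group, and their fitted values depend on the prior count and are no bounds.

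Epithelial adhesion, polarity and keratin genes had negative values, which were −2.89 for Cdh1, −2.42 for Epcam, −2.41 for Cldn4, −3.08 for Cldn7, −2.81 for Cldn23, −3.68 for Crb3, −4.47 for Tjp3, −2.23 for Lsr, −1.92 for Dsc2, −2.54 for Dsg2, −3.35 for Krt7, −2.14 for Krt8, −2.46 for Krt18, −3.29 for Krt19, −3.71 for Rab17 and −3.61 for Erbb3. Laminin and integrin genes of epithelia had −2.59 for Lamb3, −1.53 for Itga2, −0.95 for Itga6 and −2.63 for Itgb6.

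Mesenchymal and matrix genes had positive values, which were 15.21 for Vim, 3.56 for Cdh2, 9.58 for Zeb1, 11.34 for Prrx1, 4.77 for Pdgfra, 17.76 for Pdgfrb, 5.96 for Tagln, 7.08 for Fbn1, 9.98 for Col1a1, 4.30 for Col4a1, 3.69 for Col4a2, 2.91 for Col5a2, 14.28 for Col5a3, 8.20 for Nid1, 11.23 for Nid2, 17.40 for Mgp, 5.31 for Ccn4 and 8.49 for Ccn5. The integrin alpha chains 1, 7, 8 and 11 had 5.39 for Itga1, 3.54 for Itga7, 1.39 for Itga8 and 7.64 for Itga11.

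Cell-cycle genes had −1.10 for Ccnd1, 3.60 for Ccnd2, 1.52 for Cdc6, 0.76 for Pcna, 1.31 for Rb1 and −2.77 for Cdkn2a. Lysosome, autophagy and nutrient-sensing genes had −2.67 for Acp5, −1.28 for Ctsl, 3.37 for Ctsz, 1.73 for Lipa, −1.38 for Gm2a, −1.04 for Gabarapl2, −0.50 for Tfe3, −0.34 for Rptor and 1.16 for Sesn1.

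Signaling, cytokine and immune genes split by sign. The positive values were 3.34 for Jag1, 7.29 for Hey1, 3.63 for Hey2, 3.72 for Smad6, 5.20 for Tgfb2, 9.30 for Il6, 3.15 for Sema3a, 3.16 for Sema3e, 3.79 for Eda2r and 4.65 for Psmb8. The negative values were −1.62 for Dll1, −2.42 for Sema4a, −2.001 for Sema4d, −1.59 for Tgfa, −3.42 for Wnt7a, −1.87 for Wnt7b, −3.56 for Rnf43, −6.12 for Ccl20, −3.21 for Cxcl16, −6.30 for C3 and −1.71 for Atf3.

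Among the remaining genes the positive values were 10.52 for Rftn1, 9.32 for Tbx20, 7.504 for Lpl and 1.90 for Mtap, and the negative values were −3.11 for Btn1a1, −4.90 for Gcnt3, −1.68 for Hoxa7, −3.78 for Hoxb5, −2.33 for Ly6a, −4.67 for Nfasc, −3.82 for Pglyrp1, −2.94 for Phlda2, −6.26 for S100a14, −7.997 for Shank1, −4.17 for Slc6a14, −5.34 for Ptprc and −1.88 for Pparg.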

How the results depend on the processing

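Genes higher and lower in Ctsd-/- cells at 10 days numbered 1569 and 2221, and 971 and 1376 when a log2 FC of 1 itself was tested (edgeR's glmTreat) and 3564 and 3803 by the adjusted p alone, with no threshold on FC. Both of these follow from how the threshold is built. With 1 of the 6 samples left out the counts were 1512 to 1596 and 2072 to 2392. DESeq2 gave 1538 and 2237, limma-voom 1580 and 2123, and no filter on low counts 1732 and 2524. The median log2 FC of all genes lay between −0.0206 and 0.0117 under the settings tried. The replicate numbers were tried as a replicate block, which gave 1610 and 2213 genes and took the call from Krt5 (log2 FC 2.48, adjusted p = 0.0717). Same-numbered samples of the genotypes deviated together only in part (correlations of deviations of 0.362, 0.09997 and 0.299), and Ctsd-/- replicate 2 went best with Ctsd+/+ replicate 3, so the numbers were not taken as pairs.

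Of the lists, tight junction and polarity genes kept 34 higher and a median of 2.45 to 2.56 whichever sample was left out. The median of the mesenchymal list ranged from −4.04 to −3.56 and that of the interstitial matrix from −7.81 to −5.61, the latter also being −5.37 by limma-voom, −8.37 for genes with a mean count of at least 50 and −7.42 without replicate 1 of both genotypes. Between 14 and 24 genes of mitosis were lower (8 without replicate 1 of both genotypes), between 0 and 4 lysosomal hydrolases were lower, and 1 or 2 macroautophagy genes were higher. The median of chromosome 4 ranged from −0.59 to −0.55 and was −0.54 without replicate 1 of both genotypes. That of chromosome 14 ranged from −0.59 to −0.50 and was −0.57 by DESeq2 and by its size factors, −0.53 by upper quartile factors, regardless of strand and under the block, −0.49 at a mean count of at least 50, and −0.58 without replicate 1 of both genotypes. The cause was not tested.

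Of 188 genes, 161 kept their direction and their side of the thresholds under every alternative. A change of sign came only in genes that were not called. With 1 sample left out, the log2 FC ranged from −0.69 to 0.39 for Col5a2 (positive without Ctsd+/+ replicate 2), from −0.0740 to 0.31 for Mitf (negative without Ctsd+/+ replicate 2 or 3 or Ctsd-/- replicate 3), from −0.0883 to 0.00415 for Mlst8 (positive without Ctsd+/+ replicate 2 or Ctsd-/- replicate 3), from −0.0870 to 0.0366 for Tfe3 (positive without Ctsd+/+ replicate 2 or Ctsd-/- replicate 1 or 2) and from −0.21 to 0.0678 for Tfeb (positive without Ctsd+/+ replicate 1 or Ctsd-/- replicate 2). Glb1 was at −0.0276 without replicate 1 of both genotypes. Besides the genes given with their paragraphs above, Itgb6 (0.98 without Ctsd+/+ replicate 2), Jag2 (0.96 and 0.93 without Ctsd+/+ replicates 2 and 3), Sema4d (0.89 without Ctsd+/+ replicate 3), Slc17a5 (0.95 without Ctsd-/- replicate 1), Fosb (0.99 without Ctsd+/+ replicate 1), Cdkn2d (−0.99, adjusted p = 0.0766 by edgeR without replicate 1 of both genotypes) and Ptprc (2.75 in the same setting) were called with all samples and not in these settings. With 3 cultures of 1 line per genotype, small differences are limited by the spread between cultures rather than by depth, and genes with 0 counts in a group have bounds only.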

Other observations

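Called genes were not spread evenly over the chromosomes. The median log2 FC at 10 days was −0.58 over the 963 genes tested on chromosome 4 and −0.55 over the 495 on chromosome 14, against 0.61 over the 516 on chromosome 19. On the other autosomes and the X it lay between −0.16 and 0.25. Lower in Ctsd-/- cells were 25.1% of the genes tested on chromosome 4 and 26.1% on chromosome 14, against 14.6% of all genes, and higher were 22.9% on chromosome 19 against 10.3% of all genes. At 12 weeks the medians of chromosomes 4 and 14 were −0.61 and −0.54, and that of chromosome 19 was 0.10.

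Cdkn2b, which had 0 counts in every Ctsd+/+ sample at both times and 58.7, 58.6 and 53.5 CPM in Ctsd-/- cells at 10 days, lies on chromosome 4 from 89306299 to 89311039 (mm10). Its neighbor Cdkn2a had 4.38, 1.34 and 1.20 CPM in Ctsd+/+ and 28.9, 26.6 and 30.2 CPM in Ctsd-/- cells. Mtap, a gene of methionine salvage on the other side of Cdkn2a that was chosen after its values were seen, was lower in Ctsd-/- cells at 10 days, with 176.5, 156.5 and 227.9 CPM in Ctsd+/+ and 69.7, 91.0 and 89.6 CPM in Ctsd-/- cells. At 12 weeks its difference had the other sign, with 43.0, 34.1 and 36.7 against 56.3, 58.2 and 75.1 CPM (log2 FC 0.74, adjusted p = 0.00478 by edgeR, under the threshold on FC). Mtap and Cdkn2a had counts in every Ctsd+/+ sample.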
